A study of Gallus gallus with 20 samples.

Results

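The genes described are those of the anterior pituitary hormones: GH (growth hormone), PRL (prolactin, written prl in the deposited table), POMC (pro-opiomelanocortin), CGA (the glycoprotein hormone alpha subunit), TSHB (the thyrotropin beta subunit) and FSHB (the follitropin beta subunit). They were taken from the count and FPKM tables by gene name, ignoring case, and all 6 names matched 1 row each of the 28021 genes listed. The beta subunit of lutropin was not among the names matched and was not analysed here.

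Each hormone is made by its own endocrine cell type of the anterior pituitary: somatotrophs make GH, lactotrophs PRL, corticotrophs POMC, thyrotrophs TSHB and gonadotrophs FSHB. POMC is a precursor that is cut into corticotropin and related peptides, and it is also made by neurons of the hypothalamic arcuate nucleus. CGA is the shared partner of the beta subunits and is made in both thyrotrophs and gonadotrophs. Somatotrophs, lactotrophs and thyrotrophs share the lineage factor POU1F1.

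The libraries were made from total RNA of 10-week-old male Korat chickens (KRC, a slow-growing Thai line), chosen out of 200 birds kept singly in cages for the most extreme values of residual feed intake (RFI). RFI is the feed a bird eats beyond what its growth and maintenance predict, so low-RFI birds are the more efficient. No bird carried a transgene or received a treatment, and the 4 groups were low-RFI hypothalamus, high-RFI hypothalamus, low-RFI pituitary and high-RFI pituitary, with 5 libraries each. Hypothalamus libraries were stated to be 5 pools from 10 birds per group. Pituitary pools were stated to hold 2 birds each, from 8 birds per group, which gives 4 pools where the titles name 5 libraries. Libraries are written L1 to L5 (low RFI) and H1 to H5 (high RFI). All p values reflect variation among pools as sequenced, which may in part be technical.

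Depth was 10262777 to 11960994 counts in the pituitary libraries and 11418600 to 12647034 in the hypothalamus libraries. Several pituitary libraries stood apart in markers of brain tissue. The summed level of 6 neuronal markers found of 8 listed was 2051 CPM (counts scaled to library size) in L1, 1370.4 in L2 and 1009.5 in H4, against 166 to 391 in the other 7. The 4 oligodendrocyte markers found of 6 listed summed to 27483 CPM in L1, 12825 in H1 and 4044 in H4, and to 473 to 3299 in the other 7. The 4 astrocyte markers summed to 2509 CPM in L1, 1456.5 in H4 and 815 in H1, and to 174 to 506 in the others. A list of 4 cerebellar markers reached 534 CPM in H4 and 96.9 to 156 elsewhere. L1 and H4 were the highest libraries of the astrocyte list, but L2 exceeded H4 in the neuronal and H1 exceeded it in the oligodendrocyte list. Markers of meninges and fibroblasts (5 found of 6 listed) reached 15268 CPM in H2 and 778 to 7104 elsewhere. Hypothalamus L2 stood apart in 3 pineal markers, which summed to 1932 CPM against 0.325 to 5.83 in the other hypothalamus libraries. No marker of the neuronal, oligodendrocyte and meningeal lists was at 0 in every pituitary library. The part of these markers in the results below was not tested. Results that were rerun with L1 and H4 left out together, and that changed, are given with and without them. In such tissue samples fewer cells of a type and less RNA per cell cannot be told apart.

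GH (ENSGALG00000000249; GRCg6a chr27:4034905-4038410, minus strand) was the most abundant of the 6 by FPKM, a unit that corrects counts for the gene's listed length and for library size. Its low-RFI pituitary libraries L1 to L5 stood at 6982, 35418, 46038, 30143 and 66664 FPKM. Its high-RFI libraries H1 to H5 stood at 64108, 35839, 43077, 26164 and 36082 FPKM. L1 was far below every other library and the highest values of the groups, in L5 and H1, were close, so the groups overlapped. By mean CPM, GH ranked 1 of the 15786 genes tested in the pituitary.

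PRL (ENSGALG00000012671; chr2:58571228-58577382, plus strand) followed much the same order of libraries. Its low-RFI values from L1 to L5 were 1012, 2994, 6725, 2694 and 5188 FPKM. Its high-RFI values from H1 to H5 were 6092, 3646, 4183, 1420.4 and 4044 FPKM. L1 and H4 were the lowest libraries, 1 in each group. An antisense long noncoding model overlaps PRL, and it held at most 40 counts in a pituitary library. The other 5 genes have no overlapping gene in the table.

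POMC (ENSGALG00000016600; chr3:105372181-105388173, plus strand) stood at 5679.6, 8575, 16646, 16132 and 15781 FPKM in low-RFI L1 to L5. In high-RFI H1 to H5 it stood at 16116, 8669, 13378, 5844 and 16409 FPKM. The libraries L1, L2, H2 and H4 were the lowest, with the other 6 close together at the top in both groups.

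CGA (ENSGALG00000015824; chr3:76586294-76603827, plus strand) had low-RFI values of 1259, 1317, 3306, 2839.6 and 4682 FPKM and high-RFI values of 4215, 1707, 2951, 1552 and 3134 FPKM, again in library order. TSHB (ENSGALG00000002550; chr26:3979543-3982439, plus strand), which pairs with CGA to form thyrotropin, had low-RFI values of 416, 565, 1252, 1299.6 and 2027 FPKM and high-RFI values of 1947, 517, 1655, 542 and 1133 FPKM. For both genes L1, L2, H2 and H4 were the lowest 4 libraries, and L5 and H1 the highest pair.

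FSHB (ENSGALG00000012140; chr5:4772497-4775872, plus strand), which pairs with CGA to form follitropin, kept another order. Its low-RFI values were 267, 30.8, 212, 407 and 297 FPKM, and its high-RFI values 407, 123, 73.4, 117 and 566 FPKM. L1, the lowest library for GH, PRL, POMC, CGA and TSHB, was in the middle of the FSHB range, and L2 was the lowest.

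**Figure D1:**
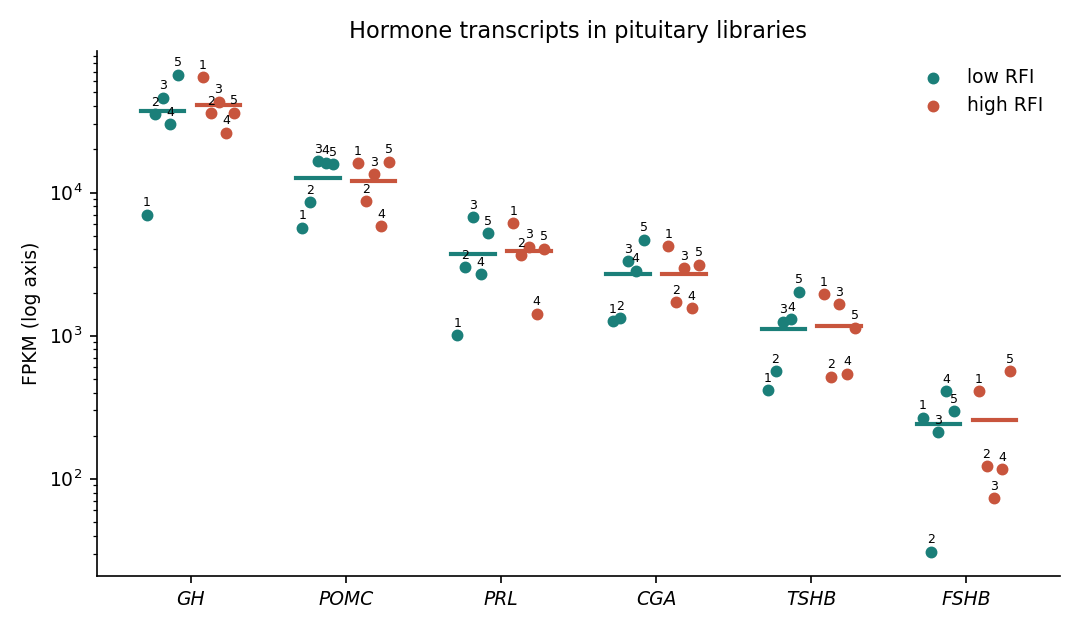
FPKM (log axis) of the 6 hormone genes in the 10 pituitary libraries; points are libraries with their number, low RFI left and high RFI right of each gene name, and lines are group means. GH runs from 6982 to 66664 FPKM and FSHB from 30.8 to 566, and the groups overlap for every gene.

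Over the 10 pituitary libraries the mean levels were 39051 ± 17517 FPKM for GH, 12323 ± 4605 for POMC, 3800 ± 1864 for PRL, 2696 ± 1209 for CGA, 1135 ± 609 for TSHB and 250 ± 172 for FSHB (SD, n = 10). Neighbours in this order were compared within libraries on the log2(FPKM + 1) scale with an exact two-sided sign-flip test over 10 libraries, adjusted over the 5 steps. GH exceeded POMC by 1.58 ± 0.63, POMC exceeded PRL by 1.79 ± 0.47, CGA exceeded TSHB by 1.32 ± 0.27 and TSHB exceeded FSHB by 2.38 ± 1.22. Each of these 4 steps in FPKM held in 10 of 10 libraries with an exact p of 0.00195, the smallest that 10 libraries allow, and an adjusted p of 0.00244. The step from PRL to CGA was smaller, 0.43 ± 0.54, in 7 of 10 libraries (exact test, adjusted p = 0.0352). That call was lost, at exact adjusted p values of 0.0547 to 0.0703, when any 1 of L2, L3, H1, H2, H3 or H5 was left out. In counts, which are not divided by length, the median PRL/CGA ratio was 0.662, and TSHB exceeded FSHB in 4 of 10 libraries with a median ratio of 0.915. The listed lengths are 474 bases for TSHB and 2440 for FSHB, 1550 for PRL and 3171 for CGA, so these steps of the order depend on the lengths.

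Together the 6 genes took 2.13, 5.30, 9.74, 7.29 and 10.8% of all counts in low-RFI pituitary libraries L1 to L5, a mean of 7.05% ± 3.49 (SD, n = 5). They took 10.97, 5.73, 8.22, 4.23 and 8.26% in H1 to H5, a mean of 7.48% ± 2.60 (SD, n = 5). Counting error is small beside this spread: the 95% Wilson interval in L1 was 2.12 to 2.13%, and it covers counting error only. The lowest shares were in L1 and H4, the highest libraries of the astrocyte list, while H1, with the second highest oligodendrocyte sum, had the highest share. Of the hormone counts GH made up 46.6% ± 9.31, POMC 29.0% ± 6.54, CGA 13.6% ± 2.97 and PRL 8.94% ± 1.94 (SD, n = 10).

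The hormone genes varied more between libraries of a group than most genes did. The SD of log2 CPM within RFI groups was 1.37 for FSHB, 0.92 for GH, 0.91 for PRL, 0.90 for TSHB, 0.72 for CGA and 0.65 for POMC. The median of all 15786 genes tested was 0.36, and the 6 genes lay between the 79.4 and the 96.6 percentile of this spread. Without L1 and H4, an alternative chosen after seeing the data, the SD was 0.45 for GH and 0.50 for PRL, against 1.53 for FSHB, 0.81 for TSHB, 0.66 for CGA, 0.44 for POMC and a median of 0.28 over all genes. The 6 genes then lay between the 72.4 and the 98.7 percentile. GH went from the 90.3 to the 73.5 percentile and PRL from the 89.9 to the 77.7.

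The comparison of low with high RFI asks whether feed efficiency goes with hormone transcript levels. None of the 6 genes passed the test in the pituitary. GH averaged 32516 ± 18949 CPM in low-RFI and 36222 ± 12465 CPM in high-RFI libraries (SD, n = 5 each), and POMC 20605 ± 8121 and 19849 ± 7541 CPM. The log2 folds, low minus high RFI, were -0.16 (SE 0.48) for GH, -0.06 (SE 0.49) for PRL, 0.05 (SE 0.37) for POMC, -0.02 (SE 0.41) for CGA, -0.07 (SE 0.49) for TSHB and -0.08 (SE 0.69) for FSHB. All 6 had an adjusted p of 0.999 in edgeR's quasi-likelihood test with Benjamini-Hochberg adjustment over 15786 genes.

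Across all genes edgeR called 0 (0%) in this comparison, with 296 genes at an unadjusted p under 0.05, and DESeq2 called 0 with 379. None of the 6 had groups that did not overlap, against 0.266% of all genes tested. The 95% intervals of the folds show what these libraries could not tell: low RFI over high RFI lay between 0.586 and 1.84 for POMC, between 0.524 and 1.85 for CGA, between 0.429 and 1.88 for GH, and between 0.329 and 2.73 for FSHB.

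In the hypothalamus GH, POMC and CGA were low but counted in nearly every library, and PRL, TSHB and FSHB were near the limit of detection. The floor of 3 counts corresponded to 0.237 to 0.263 CPM per library. GH had 55, 48, 31, 20 and 7 counts in low-RFI L1 to L5 and 0, 25, 61, 11 and 96 counts in high-RFI H1 to H5. POMC had 167, 24, 179, 43 and 58 counts in the low-RFI libraries and 9, 47, 187, 19 and 79 in the high-RFI libraries. CGA had 135, 45, 39, 22 and 137 counts in the low-RFI libraries and 6, 19, 67, 12 and 64 in the high-RFI libraries. High-RFI library 1 held the fewest counts of all 3 genes, and the groups overlapped for each.

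PRL was uneven in the hypothalamus, with 40, 11, 0, 3 and 0 counts in low RFI and 0, 4, 71, 1 and 0 in high RFI. TSHB reached at most 6 counts in a library and FSHB at most 7. Neighbours in the order of FPKM (POMC, GH, CGA, PRL, TSHB, FSHB) did not pass the exact two-sided sign-flip test in the hypothalamus, where the smallest adjusted p over the 5 steps was 0.0928.

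PRL, TSHB and FSHB failed the low-count filter of the hypothalamus fit, and the other 3 did not pass the test of low against high RFI. CGA averaged 6.13 ± 4.31 CPM in low-RFI and 2.70 ± 2.37 CPM in high-RFI libraries (SD, n = 5 each). Its log2 fold was 1.18 (SE 0.65; 95% interval -0.24 to 2.60), with an edgeR p of 0.0963 and an adjusted p of 0.964. The log2 folds of POMC and GH were 0.51 (SE 0.74) and -0.21 (SE 0.81). EdgeR called 0 of the 15179 genes (0%), with 728 at an unadjusted p under 0.05, while DESeq2 called 5 genes, none of them GH, POMC or CGA, with 812. None of the 3 had groups that did not overlap, against 0.922% of genes tested.

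**Figure D2:**
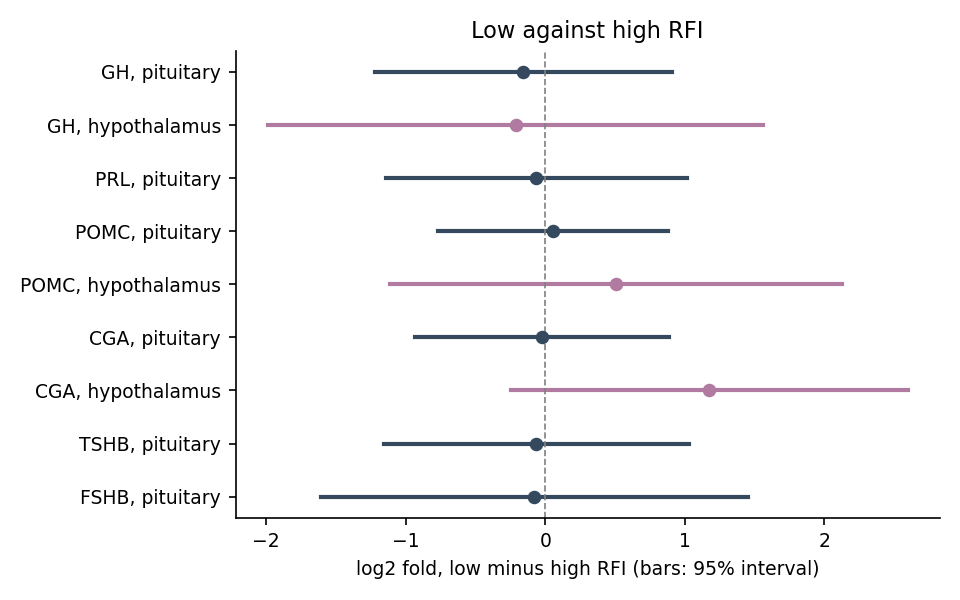
Log2 fold, low minus high RFI, of the hormone genes that passed the low-count filter, with 95% intervals, in pituitary and hypothalamus. Every interval crosses 0, from the narrowest for POMC in the pituitary (-0.77 to 0.88) to those of the hypothalamus, such as GH (-1.99 to 1.56).

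The RFI effect was also compared between tissues in 1 fit of all 20 libraries, by subtracting the hypothalamic from the pituitary log2 fold. None of the 3 genes that could be tested in the hypothalamus passed: the difference was 0.06 (SE 0.99) for GH, -0.46 (SE 0.89) for POMC and -1.20 (SE 0.82) for CGA on the log2 scale, with adjusted p values of about 1 in edgeR. PRL, TSHB and FSHB entered this fit through their pituitary counts, and their hypothalamic counts were too low to test the difference. Of 16747 genes edgeR called 0 (0%), with 392 at an unadjusted p under 0.05, and DESeq2 called 2 with 443.

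Between tissues all 6 genes were higher in the pituitary, in a comparison that called 70.8% of the genes tested in either direction and 38.3% higher. The log2 folds, pituitary minus hypothalamus, were 13.25 (SE 0.78) for GH, 12.34 (SE 1.00) for PRL, 11.95 (SE 0.72) for FSHB, 11.63 (SE 0.58) for TSHB, 11.30 (SE 0.67) for POMC and 10.92 (SE 0.60) for CGA. In linear terms GH was 9724-fold and CGA 1937-fold higher. The adjusted p values in edgeR ran from 3.46e-11 for TSHB to 1.18e-08 for PRL. The lowest pituitary library was above the highest hypothalamus library for all 6, and 10.9% of genes tested were separated in that direction. For PRL, TSHB and FSHB, which were at 0 in several hypothalamus libraries, the fitted fold rests on few counts. It depends in part on the prior count of the model and is not a bound. With single libraries left out the log2 fold ran from 12.17 to 14.06 for PRL, 11.47 to 12.20 for TSHB and 11.69 to 12.49 for FSHB.

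The make-up of the small hypothalamic hormone signal differed from that of the pituitary. Of the hormone counts in the hypothalamus POMC made up 43.3% ± 15.4, CGA 30.2% ± 15.2, GH 19.1% ± 12.9 and PRL 4.57% ± 5.96 (SD, n = 10). Hypothalamus libraries held 354 GH counts in all. At the pituitary proportion to GH, 209 POMC counts would have gone with them, against 812 found, and 99.5 CGA counts, against 546 found. PRL had 130 counts against 68.6, TSHB 18 against 6.26 and FSHB 17 against 7.09. High-RFI library H3 carried the PRL value, which was 59 counts against 56.8 without it. FSHB had 10 counts against 6.87 without high-RFI library H4, and both omissions were chosen after seeing the data.

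**Figure D3:**
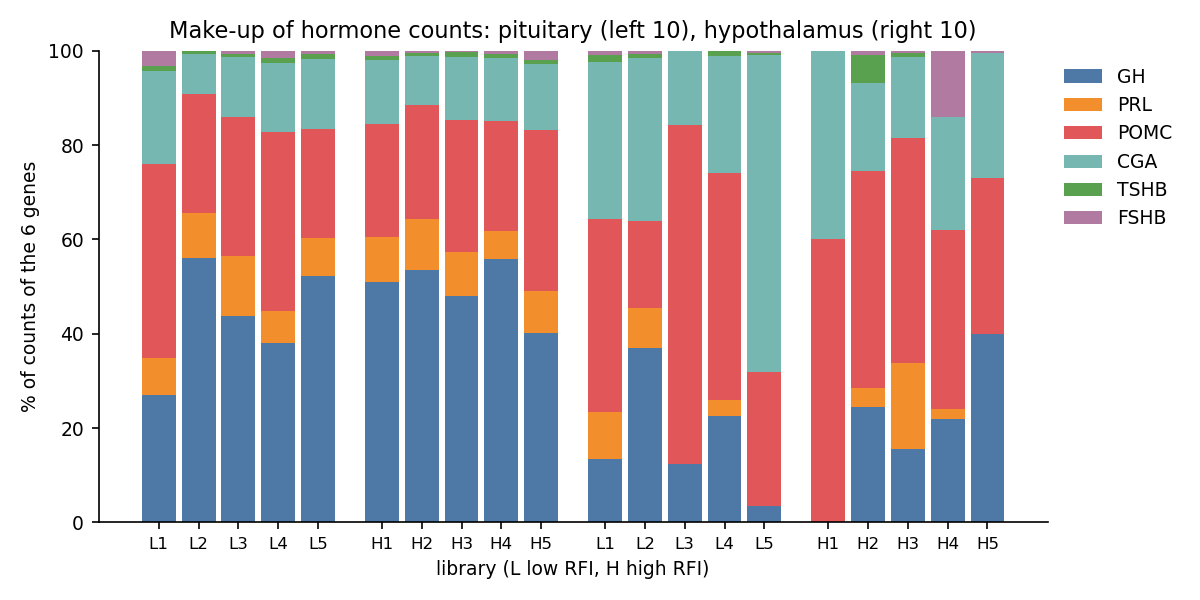
Share of each hormone gene in the counts of the 6 genes, in %, for the 10 pituitary libraries (left) and the 10 hypothalamus libraries (right), L low and H high RFI. GH is the widest band in most pituitary libraries, with a mean of 46.6%, and POMC and CGA take means of 43.3% and 30.2% in the hypothalamus.

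Ratios between hormones compare genes within a library, so that library size drops out. They were formed as log2 ratios of counts + 0.5 for all 15 pairs. Between tissues 8 of 15 pairs passed a two-sided permutation test of 100000 resamples with adjustment over the 15 pairs. With ratios of FPKM + 0.1, TSHB/FSHB also passed (permutation test, adjusted p = 0.0364). With an offset of 2 counts POMC/TSHB did (permutation test, adjusted p = 0.0458). Listed lengths cancel in the tissue difference of a log2 ratio, so these settings differ from counts + 0.5 only in the offset. TSHB and FSHB had at most 6 and 7 counts in a hypothalamus library. The 8 pairs of the count ratios were those of GH or PRL with POMC, CGA, TSHB or FSHB, and each ratio was lower in the hypothalamus. The other 7 pairs, GH/PRL and those among POMC, CGA, TSHB and FSHB, did not pass, with adjusted p values of 0.224 to 0.981. This grouping of the pairs was made after their values were seen.

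The number of calls depended on libraries at 0, where the offset of 0.5 sets the ratio. PRL was at 0 in 4 of 10 hypothalamus libraries. When each pair was tested only over hypothalamus libraries with counts of both genes, an alternative chosen after seeing the data that also leaves out the lowest values, 4 of 15 pairs passed the exact two-sided permutation test. They were GH/CGA (9 hypothalamus libraries, exact test, adjusted p = 0.000487), GH/TSHB (6 libraries, exact test, adjusted p = 0.00187), GH/POMC (9 libraries, exact test, adjusted p = 0.00498) and PRL/CGA (6 libraries, exact test, adjusted p = 0.0248). PRL/POMC (exact test, adjusted p = 0.128), PRL/TSHB (exact test, adjusted p = 0.0991), GH/FSHB (exact test, adjusted p = 0.0603) and PRL/FSHB (exact test, adjusted p = 0.271) did not pass.

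The log2 GH/CGA ratio averaged 1.78 ± 0.61 in the pituitary and -0.88 ± 1.69 in the hypothalamus (SD, n = 10 each; permutation test, adjusted p = 0.00045), and 9 of 10 hypothalamus libraries lay below the pituitary range. The log2 GH/POMC ratio averaged 0.68 ± 0.63 and -1.44 ± 1.53 (adjusted p = 0.0021 in the same permutation test), with 8 of 10 hypothalamus libraries below the pituitary range. The log2 PRL/CGA ratio averaged -0.60 ± 0.54 and -3.66 ± 2.63 (adjusted p = 0.0021, same permutation test), with 9 of 10 below. In the 6 hypothalamus libraries with PRL counts the PRL/CGA mean was -1.92 ± 1.09, and 5 of 6 lay below the pituitary range. For the 4 pairs of GH or PRL with TSHB or FSHB, the hypothalamic ratios rest on at most 7 counts of the beta subunit per library and, where a gene was at 0, on the offset of 0.5. The call for GH/FSHB was lost with any 1 of 11 libraries left out (permutation test, adjusted p = 0.0514 to 0.0807), and that for PRL/FSHB with any 1 of 4, which were hypothalamus L5 and H4 and pituitary L2 and H3 (adjusted p = 0.0522 to 0.055, same permutation test). The other 6 calls held with each library left out. Among the 7 pairs that had not passed, POMC/CGA passed without hypothalamus L3 (permutation test, adjusted p = 0.037) and CGA/TSHB without hypothalamus H2 (permutation test, adjusted p = 0.0321). GH/PRL had an SD of 2.53 in the hypothalamus against 0.42 in the pituitary, but the 3 libraries above the pituitary range had 0 PRL counts and 1 of the 3 below had 0 counts of both genes. In the 6 libraries with both, the SD was 1.29 and the count ratio ran from 0.859 to 11.

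**Figure D4:**
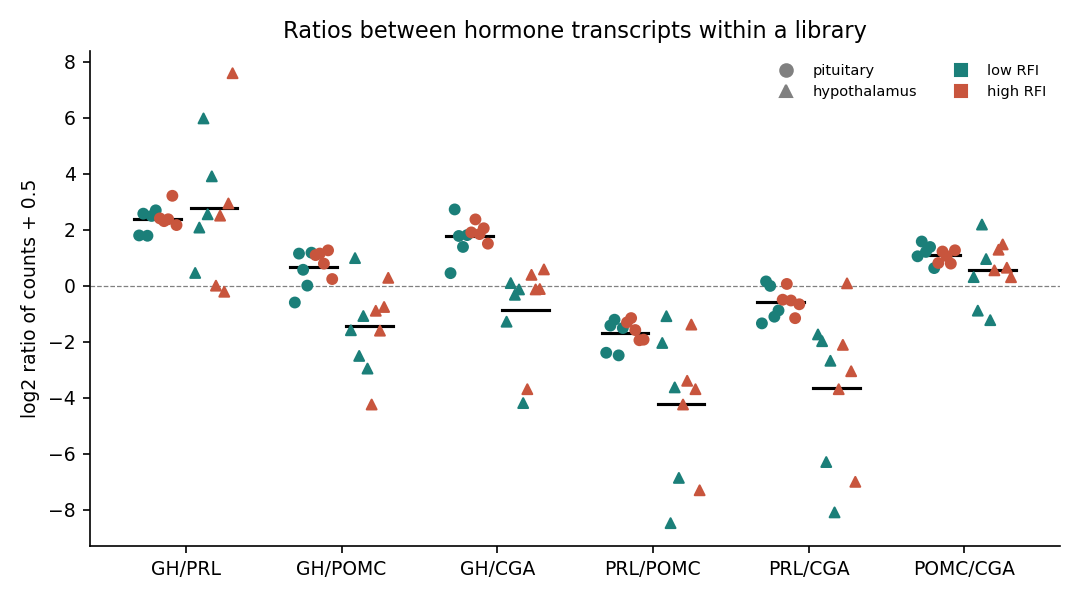
Log2 ratios of counts + 0.5 for the 6 pairs of GH, PRL, POMC and CGA; circles are pituitary and triangles hypothalamus libraries, coloured by RFI group, and black lines are means over 10 libraries. The ratios GH/POMC, GH/CGA, PRL/POMC and PRL/CGA sit lower in the hypothalamus, where the lowest PRL ratios are libraries with 0 PRL counts, and those of GH/PRL and POMC/CGA overlap widely.

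Within the pituitary, none of the 15 ratios passed the test of low against high RFI. The SD within a group reached 2.04 on the log2 scale (GH/FSHB, low RFI), so differences may have been missed. The differences in mean log2 ratio ran from -0.45 for GH/POMC to 0.14 for POMC/CGA, the smallest unadjusted p was 0.286 in an exact two-sided permutation test of all assignments of the RFI labels, and every adjusted p was 0.960. No pair had groups that did not overlap.

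The ratios were unequal in how tightly they held over the 10 pituitary libraries. In counts, CGA/TSHB ran from 11.9 to 22.1 with a median of 16.6, and POMC/CGA from 1.55 to 2.99 with a median of 2.20. GH/PRL ran from 3.45 to 9.27 with a median of 5.24, and GH/POMC from 0.659 to 2.40 with a median of 1.93. L1 was the lowest library for GH/POMC, and H4 the highest for GH/PRL. GH/FSHB was the loosest pair, with a 43.9-fold range. The alpha subunit exceeded the sum of the TSHB and FSHB beta subunits in every library, by 1.66 to 2.67 times in FPKM (median 1.93). The ratio was 2.00 ± 0.25 in low and 2.07 ± 0.42 in high RFI (SD, n = 5 each, exact two-sided permutation test, p = 0.786). The size of this excess depends on the listed lengths: the median CGA/TSHB ratio was 16.6 in counts and 2.49 in FPKM. The beta subunit of lutropin, not analysed here, is not in the sum.

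By Pearson's r, levels of the hormone genes rose and fell together over the 10 pituitary libraries, except for FSHB. The r of FSHB with POMC and CGA was higher without L1 and H4, as given below. With CGA it was 0.73 without L1 alone. Spearman's rho of CGA/FSHB was 0.53 over 10 libraries and 0.57 without both L1 and H4. Of 15 correlations of log2 CPM, 10 passed a two-sided permutation test adjusted over the 15 pairs, and these were the 10 pairs without FSHB, with Pearson's r of 0.72 to 0.96. The 5 pairs with FSHB had r from -0.01 to 0.56 and did not pass. By Spearman's rho 8 of 15 passed. Of the pairs without FSHB, GH/POMC (rho 0.55, adjusted p = 0.143) and POMC/TSHB (rho 0.61, adjusted p = 0.109) did not pass this permutation test. POMC/FSHB, which also did not pass, had a rho of 0.59. The points share libraries, depth and the scaling of CPM.

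CGA and TSHB had the highest r, 0.96 (adjusted p = 0.000975) with rho 0.85 (adjusted p = 0.0142), in the permutation test over 10 libraries. GH and PRL followed the same pattern, with r 0.89 (adjusted p = 0.000975) and rho 0.92 (adjusted p = 0.0078), same permutation test. These 2 pairs passed again when the pair of libraries farthest from the median of the first gene was left out, with r of 0.95 (adjusted p = 0.0297) and 0.87 (adjusted p = 0.0486) in the permutation test. The other 8 relations did not pass over the 8 libraries that remained. In 4 of them Pearson's r changed little, with 0.90 in both for POMC/CGA and going from 0.89 to 0.86 for POMC/TSHB, 0.73 to 0.67 for GH/CGA and 0.74 to 0.67 for GH/TSHB. For POMC the libraries left out were L1 and H4. Without them rho went from 0.61 to 0.29 for POMC/TSHB and from 0.81 to 0.64 for POMC/CGA. The largest fall in r was in PRL/POMC, from 0.85 to 0.49. It went from 0.76 to 0.55 for PRL/TSHB, from 0.72 to 0.57 for GH/POMC and from 0.78 to 0.66 for PRL/CGA. Without L1 alone GH/POMC (r 0.59, adjusted p = 0.119) and PRL/TSHB (r 0.66, adjusted p = 0.0687) did not pass the permutation test, and CGA/FSHB did (r 0.73, adjusted p = 0.046).

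L1 and H4 were the lowest libraries for PRL and GH. They were the highest of the astrocyte list, but L2 exceeded H4 in the neuronal and H1 exceeded it in the oligodendrocyte list. GH stood at 35418 FPKM in L2 and 64108 in H1, and the part of brain tissue was not tested. Without L1 and H4, CGA/TSHB was the 1 pair of 15 that passed, with r 0.94 (permutation test over 8 libraries, adjusted p = 0.0391). POMC/CGA kept an r of 0.90 (adjusted p = 0.0757, permutation test) and GH/PRL one of 0.80 (adjusted p = 0.0757). GH/POMC was at 0.38 (adjusted p = 0.449, same permutation test). FSHB was at 0.80 with POMC (adjusted p = 0.0757) and at 0.74 with CGA (adjusted p = 0.0901, same permutation test). With GH, PRL and TSHB it was at 0.22, 0.31 and 0.55.

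**Figure D5:**
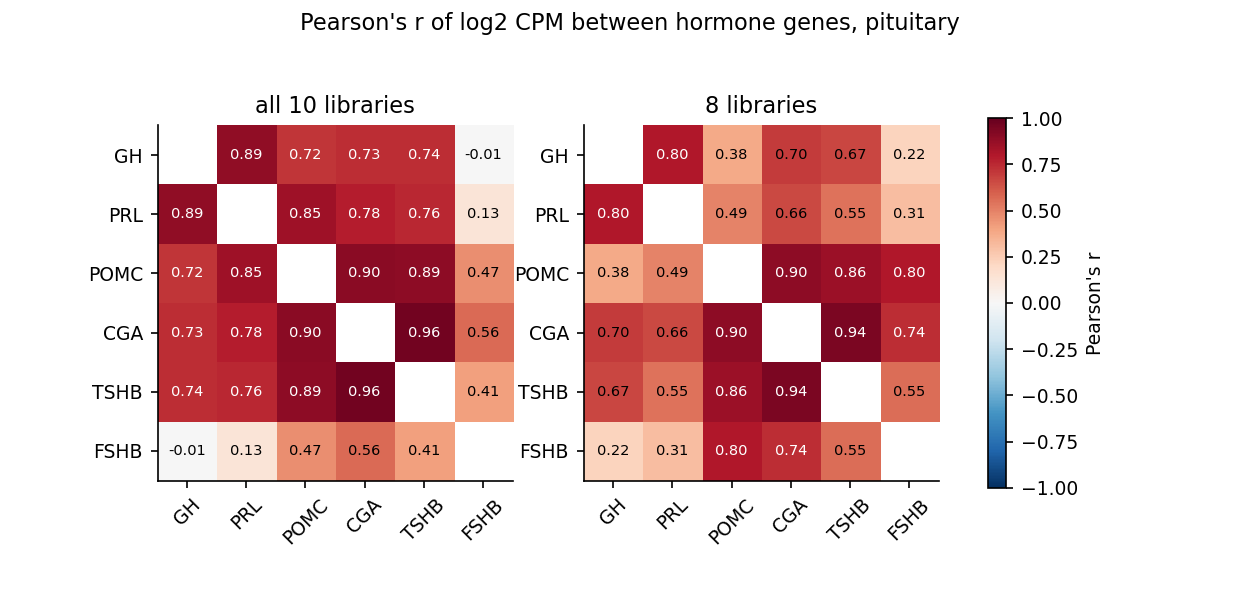
Pearson's r of log2 CPM for each pair of hormone genes over all 10 pituitary libraries (left) and over the 8 without L1 and H4 (right); colour runs from -1 (blue) to 1 (red). CGA/TSHB is at 0.96 and 0.94, while GH/POMC goes from 0.72 to 0.38.

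In the hypothalamus all 15 correlations were positive and 0 passed the same permutation test, with 3 at an unadjusted p under 0.05. The 3 were POMC/CGA (r 0.73), PRL/TSHB (r 0.72) and GH/POMC (r 0.70), each with an adjusted p of 0.108 in the permutation test over 10 libraries.

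The genes whose pituitary pattern was most like each hormone were found by Pearson's r of log2 CPM over the 10 libraries among 9077 protein-coding genes, as a description. For GH they were PCBD1 (r 0.98), LRIG3 (0.97) and HDAC2 (0.97), and for PRL ELMO3 (0.99), ALG5 (0.98) and BCO1 (0.96). For POMC they were FUCA1 (0.98), MAT1A (0.97) and MAP3K15 (0.97), and for FSHB PIAS4 (0.89), CIDEA (0.87) and FLT4 (0.84). CGA had PRKCSH (0.98), PBXIP1 (0.97) and CBR4 (0.97), and TSHB had PRKCSH (0.97), FICD (0.94) and STXBP3 (0.94). As the highest of 9077 over 10 libraries, these r are high by selection. The values without L1 and H4 use 8 of the same libraries and are no separate check. Without L1 and H4, r with GH was 0.94 for PCBD1, 0.82 for LRIG3 and 0.85 for HDAC2. With PRL it was 0.98 for ELMO3, 0.90 for ALG5 and 0.89 for BCO1. For the genes named with POMC, CGA, TSHB and FSHB it ran from 0.84 to 0.98. PRKCSH is a subunit of a glucosidase that trims sugars of glycoproteins in the endoplasmic reticulum. It came first for CGA and TSHB, which correlated with each other at r 0.96, so these placings are not separate. It was not among the 3 of FSHB, the other glycoprotein subunit. A link of PRKCSH to these hormones was not tested.

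Genes that act around the hormones did not pass the test of low against high RFI either. Of 18 tested lineage factors of the pituitary (23 listed), 0 were called in either direction, and 5 had folds above and 13 below 0, with a median log2 fold of -0.10 against 0.02 over all genes tested. OTX2, a homeobox factor of the head and pituitary primordium, had the smallest unadjusted p, with a log2 fold of 1.26 at 1.38 to 11.7 CPM in low and 1.10 to 2.99 CPM in high RFI. Its p was 0.045 and its adjusted p 0.999 in edgeR, and it was the 1 gene of the list under an unadjusted 0.05. Of 25 tested receptors and related genes that control release (33 listed), 0 were called, 0 were under an unadjusted p of 0.05, and 10 folds were above and 15 below 0 with a median of -0.04. NR3C1, the glucocorticoid receptor, had a log2 fold of -0.38 (SE 0.18; edgeR, adjusted p = 0.999). Of 18 tested genes of hormone processing and secretory granules (23 listed), 0 were called and 0 were under an unadjusted p of 0.05. Of their folds 13 were above and 5 below 0, with a median of 0.13 against 0.02 over all genes tested. SYT1 is listed both here and among the neuronal markers, whose sum was highest in low-RFI L1 and L2. The part of brain tissue in these folds was not tested, and the gene lists were not rerun without L1 and H4.

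The hypothalamic releasing and inhibiting factors were compared in the hypothalamus, where 13 of 18 listed were tested. EdgeR called 0, with 3 (DDC, GHRH and TH) under an unadjusted p of 0.05, 9 had folds above and 4 below 0, and the median log2 fold was 0.27 against 0.01 over all genes tested. Over all 15179 genes tested in the hypothalamus edgeR also called 0 (0%), and the number under an unadjusted p of 0.05 is given above. Growth-hormone-releasing hormone (GHRH) averaged 14.4 ± 4.95 CPM in low and 7.36 ± 3.98 CPM in high RFI (SD, n = 5 each). Its log2 fold was 0.97 (SE 0.36; edgeR, adjusted p = 0.964). TH and DDC, which make dopamine, the inhibitor of PRL release in mammals, had log2 folds of 1.37 (SE 0.52) and 1.83 (SE 0.52), each with an adjusted p of 0.964 in edgeR. TH ran from 2.53 to 35.6 CPM in low and from 4.70 to 6.94 CPM in high RFI. DDC ran from 10.1 to 124 CPM in low and from 16.6 to 24.9 CPM in high RFI. GHRH ran from 6.74 to 20.2 and from 3.59 to 12.9 CPM, so the groups overlapped for all 3. GH and PRL in the pituitary had log2 folds of -0.16 and -0.06 in the same direction of comparison.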

How the data were processed

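RNA-seq of pooled hypothalamus and pituitary was analysed in 20 libraries, 5 in each of 4 groups assigned by title. The authors deposited whole read counts per gene and FPKM values. HISAT2 2.0.5, DESeq2 1.20.0 and the genome GRCg6a are named in the submitters' processing notes. The sources used here do not give the counting tool or its use of strand. The deposited FPKM equal count over listed length over a constant per library, to within 5.2e-15. Per the labels' protocols, RNA had an integrity number of at least 7.7 and 1 µg entered each library. Chi-square over degrees of freedom between libraries of a group was 8.41 to 212, and each was kept as its own sample.

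Counts were tested in R 4.3.3 with edgeR 4.0.16 (TMM, filterByExpr, robust quasi-likelihood test, Benjamini-Hochberg adjustment over all genes tested, threshold 0.05), each tissue alone for RFI and all 20 libraries between tissues; DESeq2 1.42.0 was an alternative. Levels are CPM (TMM) or FPKM, log2 CPM used a prior count of 2, and ratios used counts + 0.5. Permutation tests, all two-sided, ran in Python 3.11.15 with numpy 2.4.6 and pandas 2.3.3. They were exact for ratios between RFI groups, the order of levels, and tissue ratios over hypothalamus libraries with counts of both genes. The other tissue ratios and the correlations used 100000 resamples. The scripts were tested on simulated data. Alternatives were another scaling, filter, test or pseudocount, a replicate block, each library left out, and pituitary L1 and H4 left out; 3 more, named where given, were chosen after seeing the data.

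The members, gene lists and tests were chosen with earlier results of these data known. Genes named are the 6 hormone genes, for each the 3 protein-coding genes of at least 10 mean CPM most correlated with it, and up to 4 per gene list of smallest unadjusted p.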

Additional observations from a re-analysis of the deposited data

Results flagged for a closer look

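In groups of 5 libraries, a highest or lowest library was marked where its gap to the nearest other exceeded 0.71 of the whole range. This marked 5 of 58 sets of values. For independent, normally distributed values about 1 in 20 sets would be marked. The sets here share genes and libraries and some hold low counts, so that rate is no test of the marks.

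Of these, 4 were hormone genes at very low level in the hypothalamus. PRL was at 5.67 CPM in high-RFI library 3, against 0 to 0.317 in the other 4. TSHB was at 0.477 CPM in low-RFI library 1 (others at most 0.0873), and FSHB at 0.318 CPM in the same library (others at most 0.0873). FSHB was at 0.559 CPM in high-RFI library 4, against at most 0.160 in the others. The remaining mark was the log2 GH/PRL ratio of pituitary high-RFI library H4, 3.21 against 2.17 to 2.40 in the other 4.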

How the results depend on the processing

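Over the alternatives, the counts of hormone genes, ratios and correlations past the threshold and of all genes called moved by over 1.5 times in 5 of 243 values, and values for single genes or pairs changed sign in 65 of 972. DESeq2 called 5 genes in the hypothalamus and 2 for the difference of the RFI effect between tissues, where edgeR called 0. Without pituitary L1 and H4, 1 correlation passed in place of 10. The RFI folds were then 0.0062 for GH and 0.026 for CGA, against -0.16 and -0.02 with all libraries. The RFI difference in GH/PRL was 0.073 against -0.22, and r of GH/FSHB was 0.22 against -0.01. Between tissues the GH/PRL difference was -0.40 with counts + 0.5, but 0.40 as an FPKM ratio and 0.34 with counts + 2. Over hypothalamus libraries with counts of both genes it was 0.66, and 4 ratio pairs passed in place of 8. On log2(FPKM + 1), r of GH/FSHB was 0.011. The cause of these changes was not tested.

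With single libraries left out, the pituitary RFI folds ran from -0.45 to 0.12 for GH, -0.38 to 0.19 for PRL, -0.12 to 0.24 for POMC, -0.30 to 0.20 for CGA, -0.37 to 0.21 for TSHB and -0.34 to 0.43 for FSHB. The hypothalamus GH fold ran from -0.53 to 0.46. The difference of the RFI effect between tissues ran from -0.61 to 0.38 for GH, -3.05 to 1.96 for PRL, -1.21 to 1.04 for TSHB and -0.33 to 1.79 for FSHB, the last 3 with too few hypothalamus counts to test. The RFI difference in CGA/TSHB ran from -0.15 to 0.077, the tissue difference in GH/PRL from -0.73 to 0.14 and r of GH/FSHB from -0.13 to 0.27. The number of hypothalamus correlations passing ran from 0 to 1; without low-RFI library 5, GH/CGA passed at r 0.88 (permutation test, adjusted p = 0.00765).

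Same-numbered libraries were not treated as pairs in the main tests. Their deviations correlated at -0.10 to 0.39 in the pituitary and -0.13 to 0.18 in the hypothalamus, and the own number gave the highest value in 1 of 5 and 0 of 5. Between tissues they correlated at -0.31 to 0.25, and the own number was highest in 1 of 10. These values cannot show whether same-numbered pools of the tissues came from the same birds. With the replicate block, 0 hormone genes passed for RFI and 6 between tissues, as without it, the hypothalamus GH fold was 0.24, and the differences of the RFI effect between tissues were -0.49 for GH and -0.57 for PRL. Low counts limit the results of the hypothalamus, where PRL, TSHB and FSHB were at 0 in several libraries.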
